A study of Homo sapiens with 3 samples.

Results

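The genes described here are the core machinery that makes and uses small silencing RNAs: DROSHA, DGCR8, XPO5, DICER1, TARBP2, the Argonaute genes EIF2C1, EIF2C2, EIF2C3 and EIF2C4, and TNRC6A. They are 10 of 22825 genes in the deposited counts. They were chosen by name, from the symbols in the files, and a gene's count was that of its record with the largest total. The Argonaute genes stand there under older names and are now called AGO1, AGO2, AGO3 and AGO4 in the same order.

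All 3 libraries came from MDA-MB-231, an established human triple-negative breast cancer line that the labels mark as R280K. Every culture received a control siRNA at 50 nM in 2 transfections 24 h apart and was harvested 48 h after the second, so no untransfected cells enter here. The labels call the libraries biological replicates of 1 group, and n is 3 throughout. Samples given the study's p53 siRNA are not analysed here, so the values describe transfected control cells and the spread between their libraries.

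MicroRNAs are cut from long primary transcripts in the nucleus by the Microprocessor, in which the RNase III enzyme DROSHA works with the RNA-binding protein DGCR8. Exportin-5, the product of XPO5, carries the hairpin precursor to the cytoplasm, where DICER1 cuts it with the help of TARBP2. An Argonaute protein keeps one strand as its guide, and a GW182 protein such as TNRC6A recruits the enzymes that shorten the tail and remove the cap of the paired messenger. A transfected siRNA enters the same Argonaute proteins, and EIF2C2 encodes the Argonaute best known for cutting a fully paired target.

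Gene totals were 68670363, 84888346 and 54517311 counts in replicates 1, 2 and 3. A count of 3 equalled 0.0354 to 0.0548 CPM, the count scaled to library size. If both mates of a pair were counted, which is not stated, 3 read pairs would equal 0.0708 to 0.110 CPM. In all, 12682 genes reached 1 CPM in every library, and these are called detected. Of 6 markers of the line 5 were detected, among them VIM and KRT8, while CDH1 was not. Of the hormone and growth factor receptors, ERBB2 was detected and ESR1 and PGR were not. Leukocyte markers were detected in 0 of 3 cases and summed to 0.863 to 1.70 CPM. Endothelial markers were detected in 2 of 3 cases with sums of 5.66 to 6.35 CPM, and fibroblast markers in 2 of 3 cases with sums of 20.8 to 25.2 CPM, DCN standing at 0 counts in every library. The part of other cells in the levels below was not tested.

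All 10 genes were detected in every library. Levels are given on 3 scales because the genes differ widely in length. CPM does not correct for length and cannot rank genes by number of molecules. TPM, a scaled share of transcripts, divides each count by the length of the GENCODE 29 transcript model that matches the counted record. Coding-length TPM divides by the coding part alone. Since the span of each record in the authors' hg19 annotation is not given in the sources used here, the length corrections are estimates.

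Sequences that bear on the members come in 2 sets. The first is a pair of microRNA hairpins that lie inside the DGCR8 messenger itself and that Microprocessor can cut out of it. Their mature products, from RefSeq on build GRCh38.p14, are shown 5′ to 3′ with the seed (bases 2 to 8) in capitals. MIR3618 gives 1 product at chr22:20085797-20085818 and MIR1306 gives 2, at chr22:20086072-20086093 and chr22:20086112-20086129, all on the plus strand.
hsa-miR-3618: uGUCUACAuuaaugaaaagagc
hsa-miR-1306-5p: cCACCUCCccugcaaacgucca
hsa-miR-1306-3p: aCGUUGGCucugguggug
These 3 products have 3 different seeds.

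The second set holds microRNAs known to act on DICER1. The related miR-103a-3p and miR-107 share a seed, and let-7a-5p has another. Copies of miR-103a-3p lie at chr5:168560904-168560926 (minus strand) and chr20:3917541-3917563 (plus strand), miR-107 lies at chr10:89592756-89592778 (minus strand), and 1 of the let-7a-5p copies lies at chr9:94175962-94175983 (plus strand).
hsa-miR-103a-3p: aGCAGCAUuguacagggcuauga
hsa-miR-107: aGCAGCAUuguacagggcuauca
hsa-let-7a-5p: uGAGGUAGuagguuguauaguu
The libraries measure messengers, so none of these mature microRNAs has a level here.

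The Microprocessor genes come first in the pathway. DROSHA (Entrez 29102, chromosome 5, 2 records) stood at 109, 103 and 107 CPM in replicates 1, 2 and 3. Its TPM was 49.2, 46.0 and 49.0, with a mean of 48.1 ± 1.79 (SD, n = 3), above 69.7% of detected genes. The 3 libraries lay close together, with replicate 2 lowest.

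DGCR8 (Entrez 54487, chromosome 22, 2 records), the partner that recognises the primary hairpin, stood at 48.5, 46.3 and 44.0 CPM. Its TPM was 25.7, 24.3 and 23.6, with a mean of 24.5 ± 1.06 (SD, n = 3), at the 51.6th percentile of detected genes. DROSHA was above DGCR8 in all 3 libraries on every scale and the ranges did not overlap. The ratio of DROSHA to DGCR8 was 1.96 ± 0.0995 in TPM and 1.30 ± 0.0658 in coding-length TPM (SD, n = 3). An antisense gene on the other strand overlaps 522 bases, or 11.6%, of the DGCR8 model, and the strand setting of the counting is not stated, so reads from that stretch are uncertain.

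The 2 hairpins within DGCR8, whose products are printed above, have records of their own. MIR3618 held 28, 28 and 17 counts and MIR1306 held 41, 57 and 34. Against the number expected if reads covered the DGCR8 model evenly, these were 0.182 ± 0.0188 and 0.335 ± 0.0281 (SD, n = 3). Both were below even coverage in all 3 libraries. The same ratio for all 30 hairpins that lie within an exon and had at least 10 expected counts had a median of 0.298, with quartiles of 0.144 and 0.387. Of the 28 in other host genes, 9 were lower than MIR3618 and 16 were lower than MIR1306. Both DGCR8 hairpins lie near the start of the model, and of the 9 hairpins in the first 25% of other host models, 5 were lower than MIR3618 and 8 were lower than MIR1306. A short record can hold only reads that overlap it, and whether cutting by Microprocessor plays a part in these ratios was not tested.

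XPO5 (Entrez 57510, chromosome 6, 1 record), the exporter, was the most abundant member on every scale. It stood at 246, 232 and 239 CPM and at 110, 102 and 108 TPM. The mean of 107 ± 3.95 TPM (SD, n = 3) was above 85.9% of detected genes. In every library XPO5 was above all 9 other members on each of the 3 scales, with no overlap of ranges. In TPM it was 3.20 ± 0.228 times DICER1, the gene of the next step. POLR1C on the other strand overlaps 348 bases, or 6.49%, of the XPO5 model, where reads of the 2 genes cannot be told apart without strand.

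DICER1 (Entrez 23405, chromosome 14, 3 records), which cuts the exported precursor to its mature length, stood at 146, 131 and 156 CPM. Its TPM was 33.8, 30.03 and 36.6, with a mean of 33.5 ± 3.28 (SD, n = 3), at the 60.0th percentile. Replicate 2 was lowest and replicate 3 highest, and the ranges of DICER1 and DROSHA did not overlap in CPM or in TPM. Their order turned with the scale. DROSHA was 0.741 ± 0.0497 times DICER1 in CPM and 1.44 ± 0.0968 times in TPM (SD, n = 3), while in coding-length TPM the ratio was 1.04 ± 0.0695 and the ranges overlapped.

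TARBP2 (Entrez 6895, chromosome 12, 3 records), a double-stranded RNA-binding partner of DICER1, stood at 18.8, 18.5 and 16.6 CPM. Its TPM was 24.0, 23.5 and 21.6, with a mean of 23.0 ± 1.29 (SD, n = 3). It has the shortest model of the 10, at 1867 bases. DICER1 was 8.08 ± 1.18 times TARBP2 in CPM but 1.46 ± 0.213 times in TPM. In TPM the ranges of DGCR8 and TARBP2 overlapped, the only neighbours in the order of 10 for which this held on that scale.

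Among the Argonautes, EIF2C2 (Entrez 27161, chromosome 8, 2 records) was highest at 95.2, 88.7 and 86.0 CPM. EIF2C1 (Entrez 26523, chromosome 1, 1 record) followed at 58.5, 52.6 and 54.9 CPM. EIF2C4 (Entrez 192670, chromosome 1, 1 record) stood at 24.2, 24.8 and 25.6 CPM. EIF2C3 (Entrez 192669, chromosome 1, 2 records) stood at 16.3, 19.7 and 16.3 CPM. The 4 ranges were apart, and the order was the same in each library on all 3 scales. With the median length over a gene's transcripts EIF2C4 (45.7 ± 1.52 TPM) stood above EIF2C1 (13.3 ± 0.694; SD, n = 3).

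As shares of the 4 Argonautes together, EIF2C2 made up 47.9% ± 1.01, EIF2C1 29.5% ± 1.03, EIF2C4 13.3% ± 0.781 and EIF2C3 9.30% ± 1.15 of the summed CPM (SD, n = 3). In coding-length TPM the shares were 47.9%, 29.5%, 13.2% and 9.29%, since the 4 coding regions are of nearly equal length, from 2574 to 2586 bases. In TPM they were 42.3% ± 1.15, 27.7% ± 0.929, 24.0% ± 1.26 and 6.08% ± 0.757. No 100-base window is shared between the 4 models, and the longest run in common is 43 bases, between EIF2C3 and EIF2C4. Reads of full length therefore have no second exact match among these 4 models. Matches that allow mismatches were not tested. A long non-coding gene on the other strand overlaps 2.89% of the EIF2C1 model.

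TNRC6A (Entrez 27327, chromosome 16, 1 record), a GW182 scaffold, stood at 59.7, 58.3 and 67.4 CPM. Its TPM was 16.9, 16.4 and 19.3, with a mean of 17.5 ± 1.58 (SD, n = 3), and replicate 3 was the highest. Its relatives TNRC6B and TNRC6C have the same role. Of the 3 scaffolds TNRC6A held 53.8% ± 1.20 in TPM, against 30.03% ± 1.56 for TNRC6B and 16.2% ± 1.99 for TNRC6C. In coding-length TPM TNRC6B led with 48.1% ± 1.99 and TNRC6A held 37.2% ± 1.004. Which of the pair was higher thus depended on the length used, and TNRC6C was lowest in every library on both scales.

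**Figure D1:**
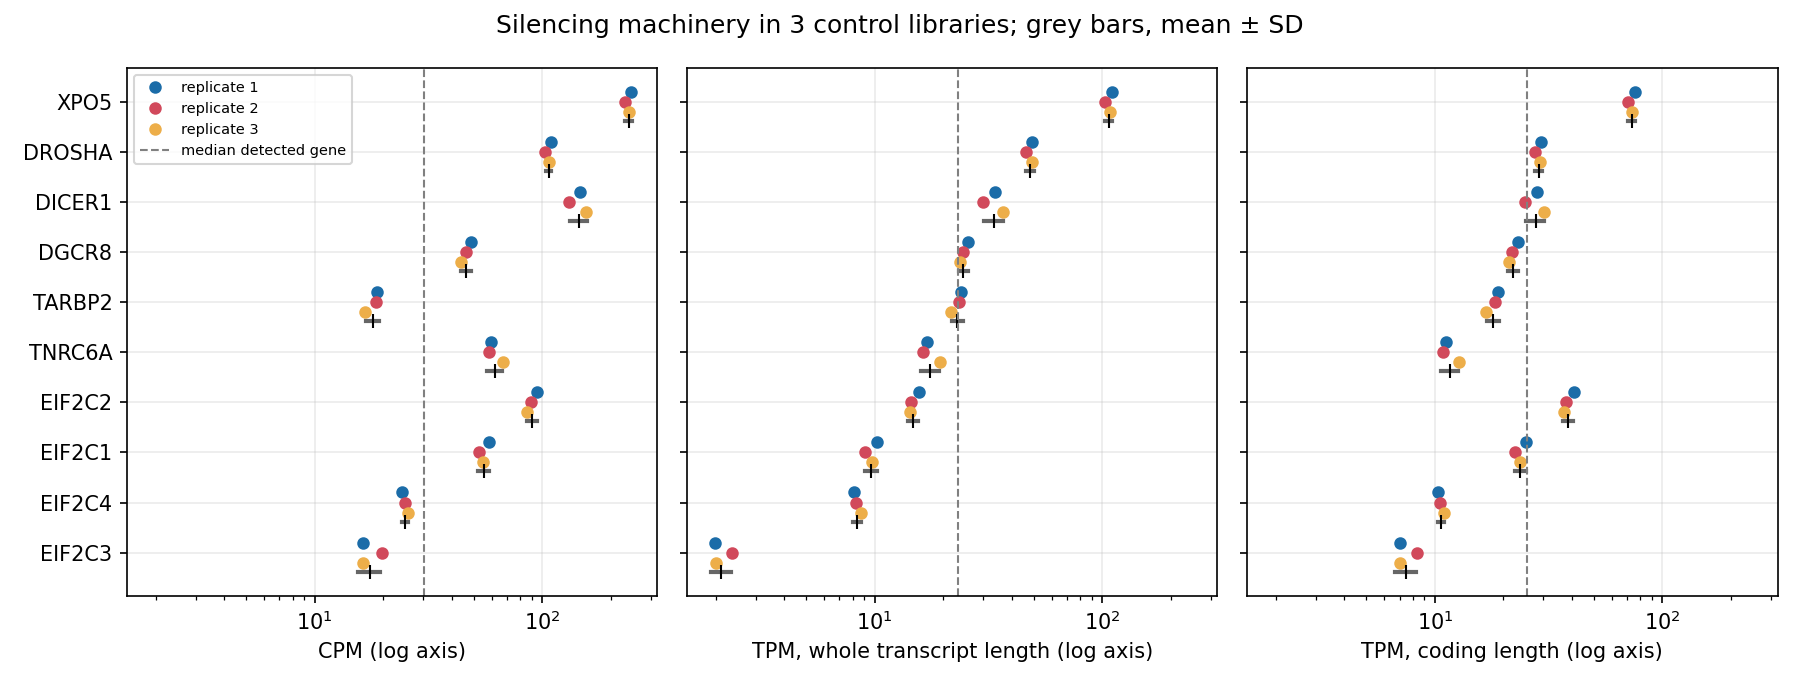
Level of each gene in the 3 control libraries, in CPM, TPM and coding-length TPM on log axes; points are libraries, grey bars the mean ± SD, and the dashed line the median detected gene. XPO5 has the highest mean on each scale and EIF2C3 the lowest, though EIF2C3 and TARBP2 overlap in CPM. EIF2C2 has rank 4 in CPM, 7 in TPM and 2 in coding-length TPM.

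Whole-transcript TPM counts the untranslated ends as length, and coding-length TPM leaves them out. In GENCODE 29 the 3′ untranslated region takes 10921 of 13708 bases in EIF2C1 (79.7%), 11888 of 14581 in EIF2C2 (81.5%), 16755 of 19687 in EIF2C3 (85.1%) and 4285 of 7116 in EIF2C4 (60.2%). For the other 6 members the share was 15.2% in TARBP2, 17.6% in DROSHA, 28.7% in both XPO5 and TNRC6A, 39.1% in DGCR8 and 41.3% in DICER1. The 3′ untranslated regions of EIF2C1, EIF2C2 and EIF2C3 are longer than those of 99.4%, 99.6% and 99.9% of detected coding genes. The median 3′ untranslated region of the 10 members was 3345 bases, against 1071 for detected coding genes, and 8 of 10 were above that median.

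**Figure D2:**
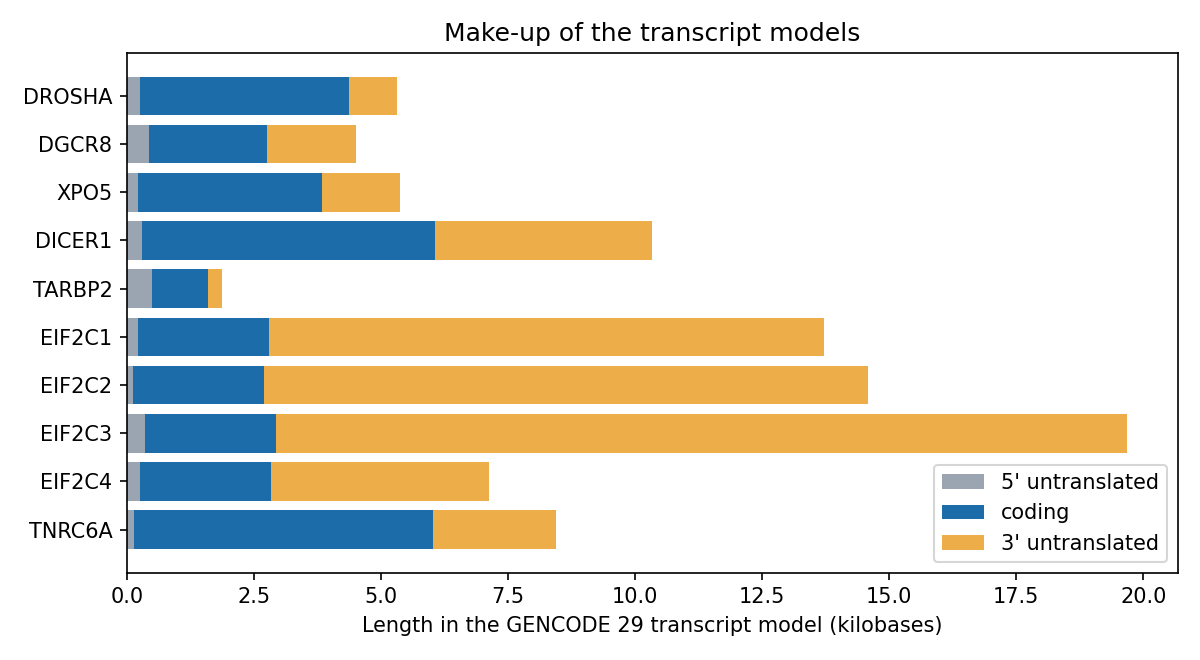
Lengths of the 5′ untranslated, coding and 3′ untranslated parts of each transcript model, in kilobases. The 3′ untranslated part makes up 60.2% to 85.1% of the 4 Argonaute models and 15.2% to 41.3% of the other 6.

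EIF2C2 stood at 14.8 ± 0.735 TPM and 38.6 ± 2.05 coding-length TPM (SD, n = 3). EIF2C1 stood at 9.66 ± 0.558 and 23.8 ± 1.39, EIF2C3 at 2.12 ± 0.217 and 7.46 ± 0.779, and EIF2C4 at 8.37 ± 0.304 and 10.6 ± 0.337. The Argonautes were higher on the second scale, and the other 6 members were lower on it: DROSHA at 28.6 ± 1.03, DGCR8 at 22.0 ± 1.04, XPO5 at 73.2 ± 2.68, DICER1 at 27.7 ± 2.62, TARBP2 at 18.1 ± 1.09 and TNRC6A at 11.6 ± 0.995. EIF2C2 was 0.307 ± 0.0139 times DROSHA in TPM and 1.35 ± 0.0613 times in coding-length TPM, so the direction between these 2 genes turned with the length.

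The shortest records of EIF2C2, EIF2C3 and DICER1 show how the counts lie on these models. The second EIF2C2 record matches a model of 3141 bases that lies wholly within the counted model and has 21.5% of its length. It held 94.8% ± 0.360 of the counts (SD, n = 3). The second EIF2C3 record matches a model of 3211 bases, 16.3% of the length, and held 89.1% ± 0.766 of the counts. For DICER1 a record matching 5621 bases, 54.4% of the length, held 96.3% ± 0.0558.

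Taken at face value, 11440 bases of the EIF2C2 model and 16476 bases of the EIF2C3 model received few reads that were not also counted for the short record. With the count and length of the shortest record, EIF2C2 came to 68.7, 63.2 and 63.1 TPM and DICER1 to 59.8, 53.1 and 64.8 TPM. EIF2C3 came to 10.9, 12.996 and 10.8 TPM. XPO5, EIF2C1, EIF2C4 and TNRC6A have 1 record each, so no such value exists for them and they kept their full models. Neither the Argonautes nor the members as a whole can therefore be ranked on like terms this way. If the authors' records were longer or shorter than the GENCODE models matched to them, these shares and levels would move, which was not tested. XPO5 was first with every length tried.

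The order of all 10 members in TPM was XPO5, DROSHA, DICER1, DGCR8, TARBP2, TNRC6A, EIF2C2, EIF2C1, EIF2C4 and EIF2C3. In CPM it was XPO5, DICER1, DROSHA, EIF2C2, TNRC6A, EIF2C1, DGCR8, EIF2C4, TARBP2 and EIF2C3, where TNRC6A and EIF2C1 overlapped, as did TARBP2 and EIF2C3. In coding-length TPM EIF2C2 came second, and 4 of 9 pairs of neighbours overlapped: DROSHA and DICER1, DICER1 and EIF2C1, EIF2C1 and DGCR8, and TNRC6A and EIF2C4. Overlapping ranges ignore that the genes were measured in the same libraries: within each of the 3 libraries TNRC6A was above EIF2C1 in CPM, DGCR8 above TARBP2 in TPM, and DICER1 above EIF2C1, EIF2C1 above DGCR8 and TNRC6A above EIF2C4 in coding-length TPM. TARBP2 was above EIF2C3 in CPM, and DROSHA above DICER1 in coding-length TPM, in 2 of 3 libraries. No test was run on the order.

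In CPM 7 of 10 members were above the median detected gene, which stood at 30.2 CPM. In TPM 4 of 10 were above the median of 23.2 TPM, and in coding-length TPM 4 of 10 were above 25.4. The median of log2(value + 1) over the members minus that over detected genes was 0.93 ± 0.08 in CPM, -0.20 ± 0.01 in TPM and -0.14 ± 0.06 in coding-length TPM (SD, n = 3). The TPM difference turned to 1.47 with the median transcript length of each gene, so the members as a list cannot be placed above or below the typical detected gene. With the shortest record of each member it was 0.18, but this changed only members with more than 1 record and left the other detected genes as they were.

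**Figure D3:**
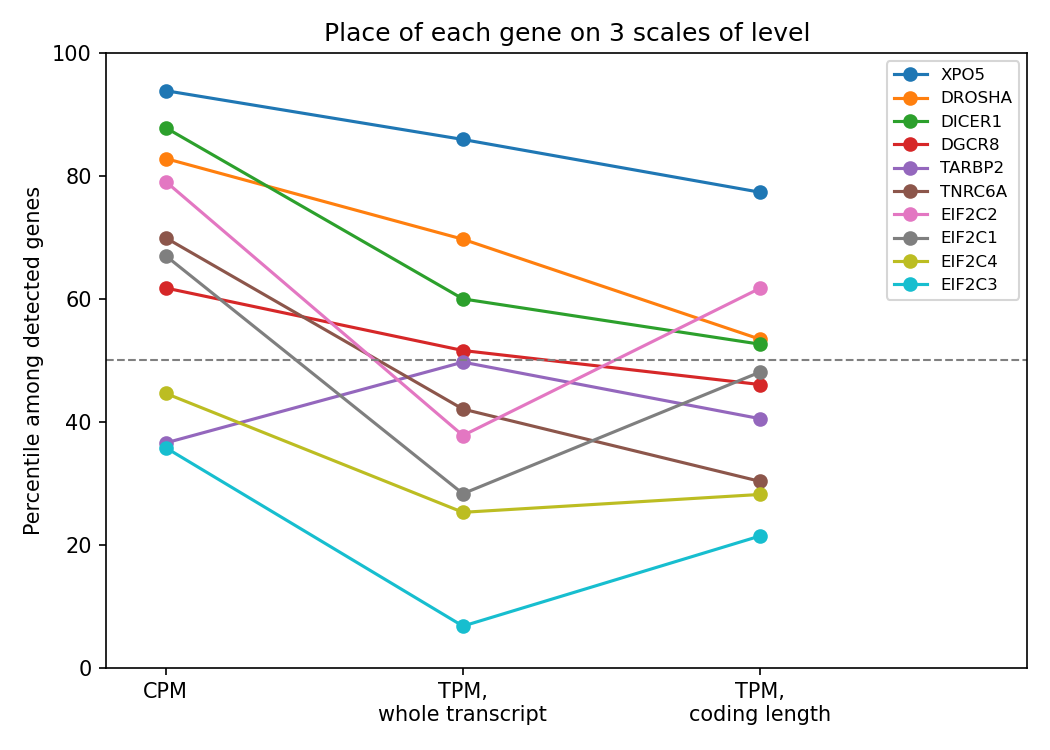
Percentile of each member among detected genes on the 3 scales; each line is 1 gene and the dashed line marks the median. EIF2C2 goes from 79.1 in CPM to 37.8 in TPM and 61.7 in coding-length TPM, whereas TARBP2, with the shortest model, is higher in TPM (49.7) than in CPM (36.6).

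The libraries were then compared with each other. For each gene the deviance of an edgeR fit with 1 common mean and no dispersion was set against a chi-square, which asks whether the 3 libraries differ by more than counting noise. Of 10 members 9 passed the Benjamini-Hochberg threshold of 0.05, against 52.9% of all 14469 genes tested and 67.1% of the 7368 genes within the members' range of CPM. With DESeq2 size factors (52.9% of genes), library totals alone (53.0%), no filter on low counts (44.2%), counts summed over records (62.4%) or the largest copy of a record alone (52.7%), 9 of 10 members passed as well. If both mates of a read pair were counted, which the sources used here do not state, the deviance is inflated. With it divided by 2, 6 of 10 members passed (XPO5, DICER1, EIF2C1, EIF2C2, EIF2C3 and TNRC6A), against 28.5% of genes and 40.3% of those within the range. Once a coefficient of variation of 0.05 was allowed for, 0 of 10 members passed with edgeR, against 1.15% of genes, and adjusted p ranged from 0.348 to 0.970. The ratio of the highest to the lowest library ran from 1.06 to 1.21 over the members, with a median of 1.11, against a median of 1.09 and a 95th percentile of 1.19 for genes in the same range of CPM. EIF2C3 at 1.21 was above that percentile, and DICER1 at 1.19 was close to it.

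DICER1 had the smallest p of the members, with an adjusted p of 1.4e-32 by the edgeR deviance test. Its log2 deviations from its own mean were 0.02, -0.14 and 0.12 in replicates 1, 2 and 3. Genes of like GC content had median deviations of -0.04, -0.02 and 0.06 in the same libraries, so they too were highest in replicate 3. With these GC trends as offsets DICER1 still passed, at an adjusted p of 1.1e-20 by edgeR. It also passed without each of the 3 libraries in turn.

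EIF2C3 deviated by -0.09, 0.18 and -0.09, the widest range of the 10, and replicate 2 stood apart. Its adjusted p was 7.0e-07 with edgeR on all libraries and 0.964 without replicate 2. TNRC6A deviated by -0.05, -0.08 and 0.13, and its adjusted p went from 4.9e-10 to 0.419 by edgeR without replicate 3. EIF2C2 and EIF2C1 were highest in replicate 1, and without that library their edgeR adjusted p were 0.176 and 0.144. The calls for these 4 genes thus each rest on 1 library. Without replicate 1, 2 or 3 in turn, 6, 7 and 6 of 10 members passed, against 37.8%, 39.2% and 24.2% of genes. Shares for genes within the members' range of CPM, higher at the settings where they were computed, were not computed here. The remaining calls were those of XPO5 (adjusted p = 2.2e-07), DROSHA (0.00231), DGCR8 (0.00383) and TARBP2 (0.0229), all by edgeR. DROSHA was not called without replicate 2 (0.403), DGCR8 without replicate 1 (0.107) or replicate 3 (0.147), and TARBP2 without replicate 3 (0.839). EIF2C4 did not pass, with an adjusted p of 0.373.

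**Figure D4:**
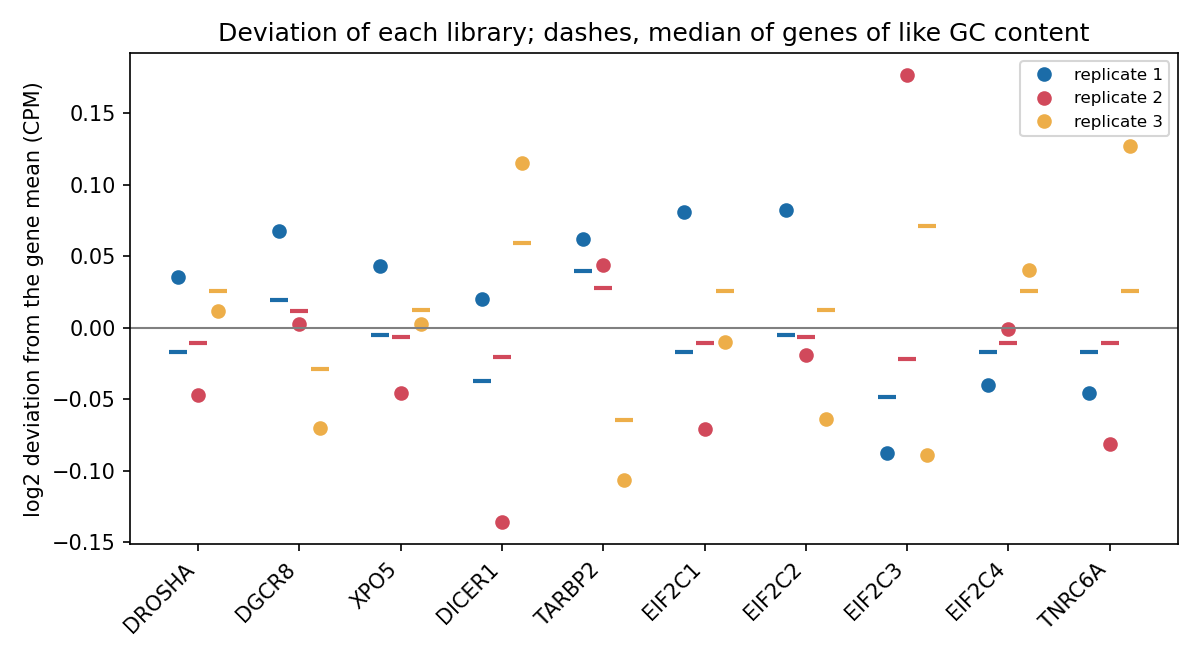
Deviation of each library from the gene's own mean, in log2 CPM; dots are the 3 libraries and dashes the median of genes of like GC content in the same library. DICER1 and TNRC6A are highest in replicate 3 and EIF2C3 in replicate 2, and TARBP2 follows its GC group, lowest in replicate 3.

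TARBP2, the member richest in GC at 60.8%, deviated by 0.06, 0.04 and -0.11, and its GC group by 0.04, 0.03 and -0.06. With GC offsets its edgeR adjusted p was 0.591. DGCR8, at 54.7% GC, lost its call as well, at 0.1002, and 7 of 10 members passed, against 39.8% of genes and 47.9% of those within the range. With GC offsets and the divided deviance together 6 of 10 passed, against 14.7% of genes. The share within the members' range of CPM was not computed at this setting. Wherever it was computed, it was above the share of all genes. Replicates 1, 2 and 3 were lowest for 1, 5 and 4 members, and lowest for 32.4%, 29.6% and 37.98% of all genes tested. They were highest for 6, 1 and 3 members, and for 31.4%, 30.3% and 38.3% of genes.

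The reference sequences show where the DICER1 messenger carries matches to the seeds of miR-103a-3p, miR-107 and let-7a-5p printed above. These microRNAs were picked as known to act on DICER1, so its number of matches is not an independent result. No other seeds were searched. The 3′ untranslated region was searched on the transcript strand alone for ATGCTGC, which pairs with the seed that miR-103a-3p and miR-107 share. DICER1 holds 5 matches in its 4270 bases, at positions 1034, 1635, 2839, 4110 and 4162 counted from the first base after the stop codon. Each is shown as 28 bases of the GENCODE 29 transcript (GRCh38) with the match in capitals.
DICER1 site 1034: tcacacctaaaatATGCTGCagatttta
DICER1 site 1635: gatgcttcgtggaATGCTGCatttatat
DICER1 site 2839: cgcagtcctaactATGCTGCgttttata
DICER1 site 4110: tatttaccatcacATGCTGCagctgttt
DICER1 site 4162: tcatacagtaatcATGCTGCagaaattt
Of 1076 detected genes with a 3′ untranslated region of like length (the shorter at least 0.8 of the longer), 29% hold at least 1 match and 0.0929% hold as many as 5. Over all 11803 such regions 12.8% hold a match.

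EIF2C2 also holds 5 matches to ATGCTGC, in a far longer region, and 0 of 87 regions of like length hold as many. EIF2C1 holds 3 and EIF2C4 holds 2, and 3.97% and 4.86% of regions of like length hold at least as many. EIF2C3 and TARBP2 hold 1 each, and 60.9% and 2.39% of regions of their length hold at least 1. DROSHA, DGCR8, XPO5 and TNRC6A hold 0. The let-7a-5p match CTACCTC occurs 0 times in the DICER1 3′ untranslated region but 4 times in its coding region, at positions 2635, 3641, 3749 and 5139 from the start codon.
DICER1 coding 2635: agcatactgtgttCTACCTCttaatgtt
DICER1 coding 3641: cccgtgcaaccaaCTACCTCatattcca
DICER1 coding 3749: aatgctaacaaatCTACCTCagatggaa
DICER1 coding 5139: atgcgattttggaCTACCTCataaccaa
The DICER1 coding region, at 5769 bases, is longer than 96.9% of those of detected genes. Of 432 coding regions of like length, 34.3% hold at least 1 match and 0.231% hold as many as 4, against 13.9% and 0.0593% of all coding regions searched. The coding region also holds 1 match to ATGCTGC, at position 3392, and 46.3% of the regions of like length hold at least 1. In 3′ untranslated regions EIF2C2 holds 2 matches to CTACCTC, and 19.5% of regions of like length hold as many. EIF2C1, EIF2C3 and TARBP2 hold 1 each. Of regions of their length, 46.8%, 47.8% and 2.08% hold at least 1, against 9.64% of all regions. These are letters in a reference, and no site was tested in these cells.

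The wider pathway was read from 10 further lists with 78 genes, of which 64 were detected. Of 67 that could be tested, 51 varied beyond counting noise by edgeR, 39 with the deviance divided by 2, and 2 once a coefficient of variation of 0.05 was allowed for. Over all genes tested the shares were 52.9%, 28.5% and 1.15% at these settings. Among the 7368 genes within the members' range of CPM, 67.1% varied by edgeR and 40.3% with the deviance divided by 2. That range is 17.4 to 239 CPM, and tested genes of the lists lie on both sides of it. HSP90AB1, for example, had a mean of 2323 CPM and PIWIL4 one of 0.799 CPM. No share was computed for genes matched to the lists in CPM. The listed genes had a median of 66.5 CPM, against 30.2 CPM for detected genes. Whole-transcript TPM is used below.

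Cofactors of primary microRNA cutting were abundant: all 9 were detected, with a median of 272 TPM. HNRNPA1, a splicing factor that binds some primary hairpins, was highest at 1356 ± 17.7 TPM (SD, n = 3), and METTL3, the enzyme that methylates adenosine in primary transcripts, was lowest at 46.8 ± 1.74. The 4 genes of the Ran cycle, which powers Exportin-5, had a median of 249 TPM. RANBP1, which helps GTP hydrolysis by Ran, stood at 337 ± 1.97 TPM, and RCC1, the nucleotide exchange factor of Ran, at 96.6 ± 2.92. XPO5 itself, at 107 TPM, stood between RCC1 and the other 3 genes of this cycle.

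PRKRA, the other double-stranded RNA-binding partner of DICER1, stood at 33.1, 32.8 and 34.2 TPM. It was above TARBP2 in all 3 libraries with no overlap of ranges, and its mean was 33.4 ± 0.723 TPM (SD, n = 3). Of the chaperones and the C3PO nuclease that help load Argonaute, 7 of 7 measured were detected, with a median of 426 TPM. HSP90AB1, a cytosolic chaperone, reached 2163 ± 42.4 TPM, and TSN, a C3PO subunit, was lowest at 49.0 ± 0.754.

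TNRC6B stood at 9.72, 8.55 and 11.2 TPM and, like TNRC6A, was highest in replicate 3. TNRC6C stood at 5.65, 5.15 and 4.92 TPM and was lowest there. Downstream of the scaffolds, all 14 deadenylation genes were detected with a median of 37.3 TPM. PABPC1, the poly(A)-binding protein, stood at 937 ± 15.5 TPM and CNOT6L, a catalytic deadenylase subunit, at 6.35 ± 0.485. All 12 decapping and decay genes were detected with a median of 58.9 TPM, from PATL1, a decapping activator, at 107 ± 4.52 to DCP1B at 4.97 ± 1.13. DCP1B, a decapping cofactor, had 5.45, 4.01 and 3.54 CPM and passed even with a coefficient of variation of 0.05 allowed (edgeR adjusted p = 0.0320), with replicate 1 highest.

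Of 9 proteins known to associate with Argonaute, 8 were detected, with a median of 44.0 TPM. SND1, a nuclease found in silencing complexes, was highest at 218 ± 6.71 TPM, while TRIM71, a ligase of embryonic cells, had 3, 0 and 0 counts. Of 8 genes that control let-7 or edit RNA tails, 6 were detected. PAPD4, a cytoplasmic poly(A) polymerase, was highest at 34.7 ± 2.86 TPM. LIN28B, which blocks let-7 maturation, had 0 counts in every library and its relative LIN28A had 0, 3 and 0. Both were at or under 3 counts in every library.

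The germline piRNA pathway, in which PIWI proteins take the place of Argonautes, served as a list of genes mostly known from germ cells. Of its 12 genes 1 was detected, PLD6, a mitochondrial membrane protein with a role in piRNA biogenesis, at 2.81 ± 0.175 TPM (SD, n = 3). PIWIL1, DDX4 and ASZ1 had 0 counts in every library. PIWIL4, a PIWI protein, had 46, 44 and 66 counts, or 0.672, 0.519 and 1.21 CPM, and passed with a coefficient of variation of 0.05 allowed (edgeR adjusted p = 0.0228). It was highest in replicate 3. At counts this low such an allowance adds little to counting noise. With the deviance divided by 2 and no such allowance its edgeR adjusted p was 0.0271, and the 2 settings were not combined.

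**Figure D5:**
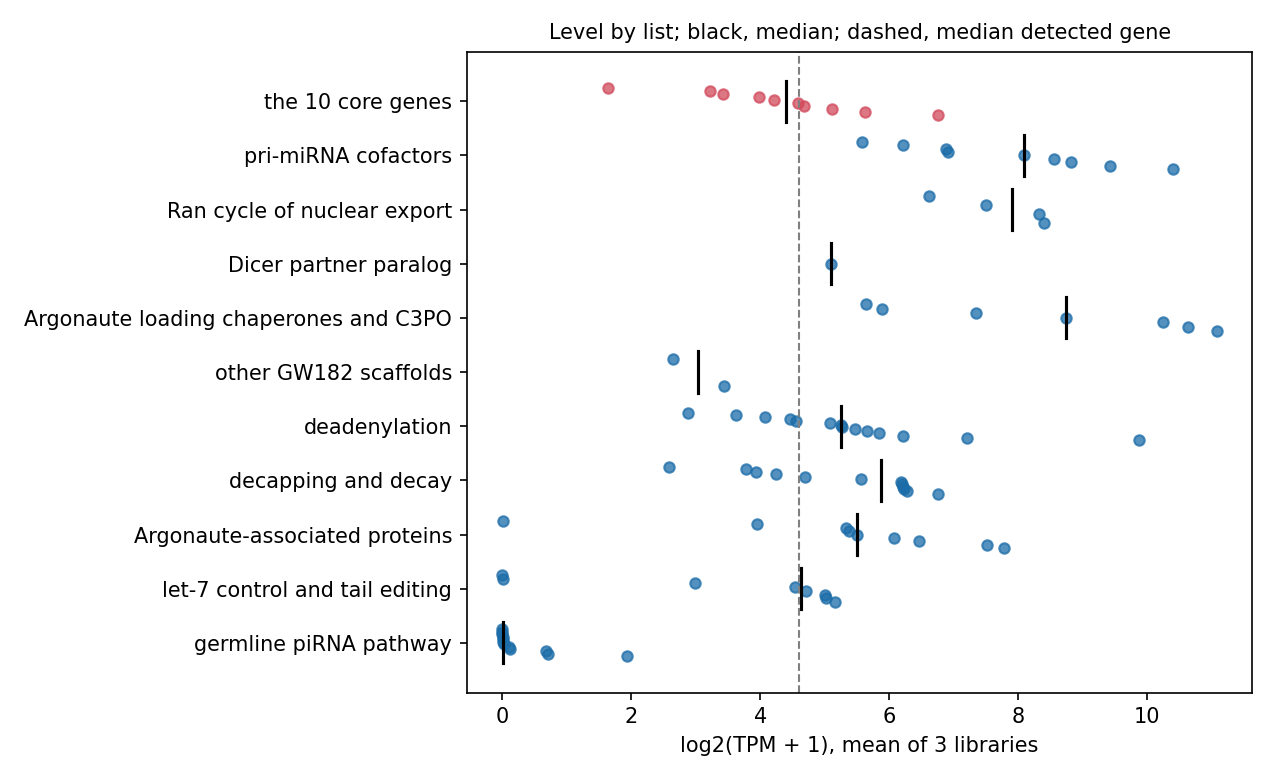
Mean level over the 3 libraries, as log2(TPM + 1), of the 10 core genes (red) and of the genes of each pathway list (blue); black bars are list medians and the dashed line is the median detected gene. The chaperone list has the highest median at 426 TPM and the germline list the lowest, with 1 of 12 genes detected.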

How the data were processed

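RNA of 3 libraries was read as pairs of 100 bp, per the labels' protocols. As deposited, values are raw counts, 1 whole number for each RefSeq record, with no scaling. Tools named in the submitters' processing notes are TopHat2, Cufflinks and FastQC, on build hg19; versions, counting tool and strand setting are not given in the sources used here.

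A gene's count was its record with the largest total, since records of a gene repeat the same reads. Of the records without a name, 619 were not matched and held 0.944% to 0.959% of all counts. CPM used edgeR 4.0.16 (TMM) in R 4.3.3. TPM used GENCODE 29 lengths, found for 97.9% of genes with a count. Variation was the deviance of an edgeR fit with 1 mean and dispersion 0, adjusted by Benjamini-Hochberg over all genes. The code was run on simulated counts that held counting noise alone, apart from genes changed in 1 library. That run cannot show how the test behaves on biological replicates.

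Every member is named, along with the highest and lowest gene of each other list by mean TPM and any listed gene past the variation test with a coefficient of 0.05 allowed. LIN28A, DDX4 and ASZ1 were named after their values were seen. No genes of like pattern are named, since 1 group holds no pattern across conditions. Members and lists were chosen with earlier results of these data known. For 1 listed gene no symbol was found in the files. Alternatives covered scaling (with DESeq2 1.42.0), filters, pseudocount, length, records, GC content and each library left out. Python 3.11.15 made the plots with matplotlib 3.10.9.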

Additional observations from a re-analysis of the deposited data

How the results depend on the processing

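Of 14469 genes tested, 7653 varied beyond counting noise. The count was 4117 with the deviance divided by 2, 166 with a coefficient of variation of 0.05 allowed and 2128 with GC offsets and the divided deviance together, and 3571 to 5663 without 1 library, fewest without replicate 3. The members called went from 9 to 0 with the coefficient of 0.05 allowed and to between 6 and 7 without 1 library. The level of the members in TPM against detected genes, -0.20 on the log2 scale, was reversed against all genes with a count (1.04). It was also reversed with counts summed over records (0.12) and with the median transcript length (1.47). With the shortest record used for the members alone, and other genes unchanged, it was 0.18. In that setting members with 1 record kept their full model, so its ranks mix unlike lengths. The level in TPM was -0.28 as a mean over members, -0.00063 with the longest transcript and -0.14 with coding length. It ran from -0.21 to -0.20 without 1 library. In CPM the level of 0.93 became 2.31 against all genes with a count and 0.74 with summed records. The rank in TPM differed for 7 members with coding length, 7 with the median transcript length, 7 with the shortest record, 6 with summed records and 8 in CPM, and for 0 with the longest transcript or without any 1 library. Scaling by DESeq2 size factors or library totals, no filter on low counts and the largest copy alone left 9 members called. The cause of these shifts was not tested. The shortest record, the largest copy alone, the CPM order and the joint GC setting were chosen after seeing the data. No paired analysis was possible because there is only 1 group.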
